A study of Mus musculus with 4 samples.

Results

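Hepatic stellate cells are the pericytes of the liver sinusoid. In a healthy liver they store vitamin A as retinyl esters in lipid droplets, and after injury they can turn into contractile, matrix-producing myofibroblasts, a change driven in part by PDGF and TGF-beta signalling. The genes described here are 10 that are used to recognise these cells: Lrat, Des, Reln, Pdgfrb, Pdgfra, Colec10, Colec11, Rgs5, Hand2 and Dcn. They were taken as all probe sets annotated to 1 of these symbols alone, which gave 23 of 34945 single-symbol probe sets and 10 of 18193 genes. Most of the members are not exclusive to stellate cells. Des is also made by muscle, Rgs5 and Pdgfrb by pericytes of other vessels, and Dcn and Pdgfra by fibroblasts.

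Microarrays were run on livers of C57BL/6J males, mice of an inbred strain, aged 4, 8, 13 and 21 months. All mice ate a low-fat diet ad libitum, no other diet is compared here, and no allele or agent was introduced at any age. Each age is 1 array of a single RNA pool from 6 mice, so the 4 groups hold 1 array each. No spread between mice or arrays is known, no pair of ages can be tested, and a difference given below compares 1 pool with another. The small number of arrays sets the precision.

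All values are log2 expression values made by RMA, a method that corrects background, normalizes arrays and summarises the 25-base probes of a probe set, so a difference of 1 is 2-fold. A gene with several probe sets was read from the probe set whose mean level was highest. A level filter at 3.74, the median of the probe set means, kept 11577 genes, among them all 10 members, and 16 of the 23 member probe sets. The array medians lay between 3.73 and 3.76, and Pearson's r between arrays lay between 0.994 and 0.996 over the probe sets, which do not count as replicates. The tissue label was checked with hepatocyte genes. Alb, which encodes albumin, was at 13.49, 13.43, 13.49 and 13.48 at 4, 8, 13 and 21 months.

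No member differed by 1.5-fold or more between any 2 of the 4 ages. At 21 vs 4 months 7 of the 10 members were higher, 2 were lower and 1 was equal, with a median difference of 0.08, where 51.4% of all genes above the filter were higher, 45.2% were lower and their median was 0.01. The members' median was 0.02 with the mean over each gene's probe sets and 0.04 with quantile normalization. Among all genes, 2.52% differed by 1.5-fold or more at 21 vs 4 months, 2.1% upward and 0.423% downward, so 0 of 10 members past that size is near the background. For 8 vs 4, 13 vs 4, 13 vs 8, 21 vs 8 and 21 vs 13 months the share of all genes past 1.5-fold in either direction was 0.855%, 1.3%, 1.08%, 3.36% and 1.93%. The median differences of the members in these 5 pairs of ages were -0.01, -0.005, -0.035, 0.04 and 0.14. At 21 vs 8 months it was 0 with the mean over probe sets and -0.03 with quantile normalization. Pairs that share an array are not independent of each other. In whole liver, fewer cells of a type and less RNA per cell cannot be told apart.

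**Figure D1:**
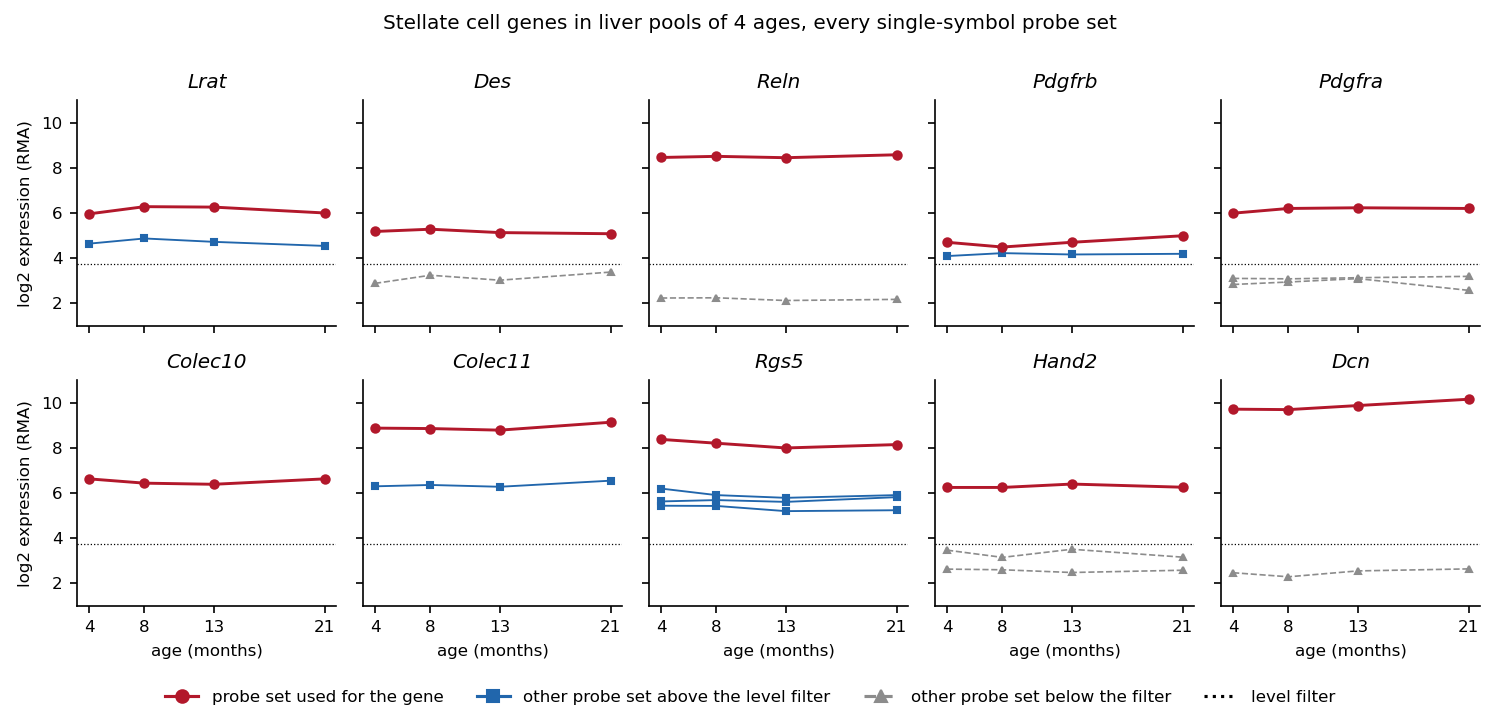
Log2 expression (RMA) of every single-symbol probe set of the 10 genes against age in months, 1 panel per gene and 1 array per age; red circles mark the probe set used for the gene, blue squares other probe sets above the level filter, grey triangles probe sets below it, and the dotted line the filter at 3.74. The red lines are nearly flat, with Dcn reaching 10.16 at 21 months, against 9.72 at 4 months.

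A size rule of 1.2-fold, smaller than the one used elsewhere, shows which members lay farthest out. At 21 vs 4 months 2 members were at least 1.2-fold higher, Dcn and Pdgfrb, and none was lower by that size, where 9% of all genes were higher and 5.49% lower by this rule. Colec11, with a fold of 1.197, lay just under it. At 21 vs 8 months 3 members were at least 1.2-fold higher and 1 lower, against 11% and 7.96% of all genes, and at 21 vs 13 months 3 were higher and none lower, against 9.12% and 6.37%. At 8 vs 4 months 1 member was higher, where 5.38% of genes were, and at 13 vs 4 months 1 was higher and 1 lower, against 5.95% and 5.31%. At 13 vs 8 months no member reached 1.2-fold in either direction, where 6.52% of genes were higher and 4.91% lower. With 10 members, each of these counts is only a few genes.

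**Figure D2:**
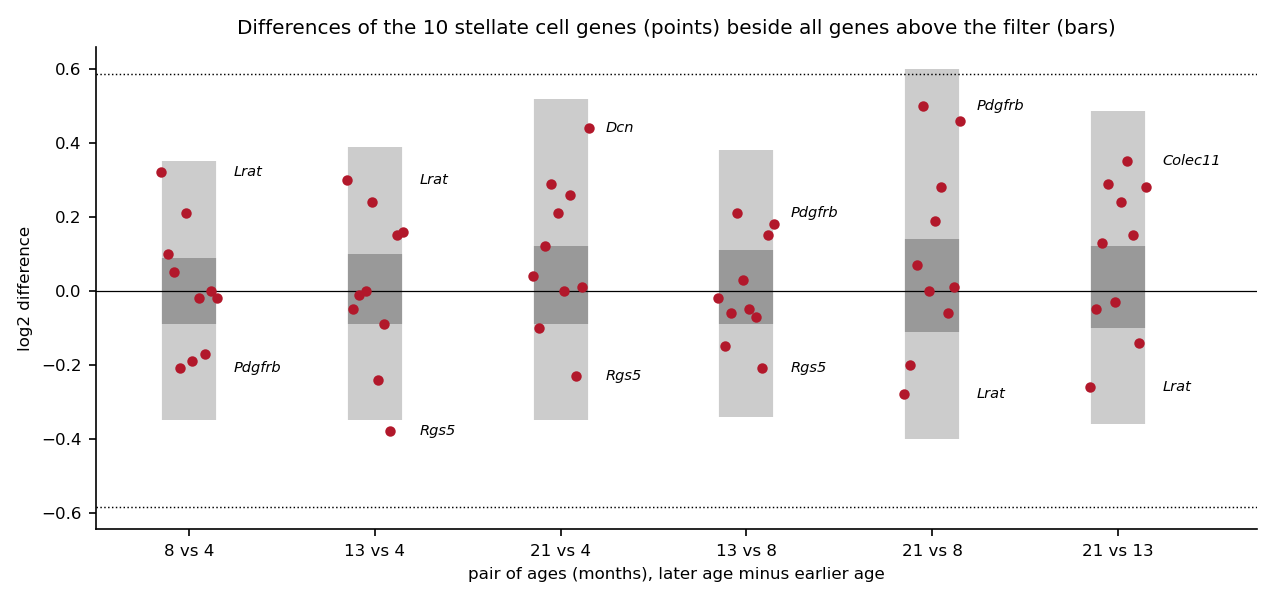
Log2 difference, later minus earlier age, for the 6 pairs of ages; each red point is 1 member, dark and light bars hold the middle 50% and 95% of the 11577 genes above the filter, and dotted lines mark 1.5-fold. All points lie within the dotted lines, and the highest and lowest member of each pair is named, such as Pdgfrb with 0.50 at 21 vs 8 months.

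Promoter sequences were held by the reference table for 7 of the 10 members, each from 250 bases before to 50 bases after an annotated transcription start. They are credited to RefSeq on GRCm38.p6. The 4 printed below belong to the members with a promoter in the table whose levels frame the results: Colec11, highest at 21 months, Rgs5, highest at 4 months, Lrat, highest at 8 months, and Reln, which varied least. Each is written 5′ to 3′ on the strand of the gene. Capitals mark any match, on either strand, to 1 of 3 motifs. The GATA site was searched as AGATAA and, separately, as TGATAA. The E-box, whose letters are bound by basic helix-loop-helix factors such as Hand2, was searched as CANNTG. The GC box was searched as GGGCGG. No marked matches of different motifs overlap. The TATA box, as TATAAA, was searched too and had no match in the 7 promoters.
Colec11, chr12:28623281-28623580, minus strand: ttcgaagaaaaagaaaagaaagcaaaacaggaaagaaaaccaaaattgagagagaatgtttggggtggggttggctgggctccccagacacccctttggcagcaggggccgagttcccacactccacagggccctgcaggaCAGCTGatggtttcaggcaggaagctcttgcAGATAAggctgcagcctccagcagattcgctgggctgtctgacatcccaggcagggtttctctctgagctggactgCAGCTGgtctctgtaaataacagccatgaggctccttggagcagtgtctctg
Rgs5, chr1:169655251-169655550, plus strand: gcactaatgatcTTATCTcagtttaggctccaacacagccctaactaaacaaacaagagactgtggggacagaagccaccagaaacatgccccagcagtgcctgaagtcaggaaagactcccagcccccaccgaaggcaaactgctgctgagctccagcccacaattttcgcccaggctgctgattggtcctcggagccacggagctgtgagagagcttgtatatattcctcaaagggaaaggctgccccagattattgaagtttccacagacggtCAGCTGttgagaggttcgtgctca
Lrat, chr3:82903925-82904224, minus strand: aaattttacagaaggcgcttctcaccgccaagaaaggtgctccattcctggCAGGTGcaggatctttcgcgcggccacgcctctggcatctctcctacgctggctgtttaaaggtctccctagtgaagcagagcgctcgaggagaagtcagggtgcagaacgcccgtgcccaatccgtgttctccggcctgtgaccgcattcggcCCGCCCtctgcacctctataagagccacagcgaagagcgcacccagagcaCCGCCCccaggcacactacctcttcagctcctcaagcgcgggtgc
Reln, chr5:22344656-22344955, minus strand: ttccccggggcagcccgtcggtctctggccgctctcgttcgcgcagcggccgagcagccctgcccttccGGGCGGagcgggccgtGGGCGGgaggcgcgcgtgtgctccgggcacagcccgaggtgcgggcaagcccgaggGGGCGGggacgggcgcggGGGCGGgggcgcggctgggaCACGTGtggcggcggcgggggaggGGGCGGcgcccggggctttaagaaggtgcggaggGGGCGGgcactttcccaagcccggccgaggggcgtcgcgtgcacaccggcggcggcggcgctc

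GATA letters were found in 3 of the 7 promoters, those of Colec11, Rgs5 and Hand2, and in 18.6% of the 32851 promoters of the table. In Colec11 the match began at base -78 from the start, in Rgs5 at -238, and in Hand2 at -215 and -172. E-box letters were found in all 7, and in 72.3% of all promoters, so their presence sets the members apart little. GC boxes were found in 4 of 7, against 35.7% of all promoters, and Reln held 6 of them. The Reln promoter was 80.7% G or C, where the median of all promoters was 52.7%, and Colec11, with 54.0%, and Rgs5, with 52.3%, were near that median. TATAAA was present in 13.6% of all promoters. These matches describe letters only, and the arrays do not measure binding.

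Lrat encodes lecithin retinol acyltransferase, which esterifies retinol for storage and is the gene most closely tied to the vitamin A droplets of stellate cells. Its level was 5.97, 6.29, 6.27 and 6.01 at 4, 8, 13 and 21 months. The middle ages were higher than both ends of the series, by 0.32 at 8 vs 4 months, and 21 months was 0.04 above 4 months. The other Lrat probe set was at 4.65, 4.88, 4.73 and 4.55. It too was highest at 8 months, but it placed 13 months only 0.08 above 4 months, where the first gave 0.30. Both probe sets were lower at 21 than at 8 months, by 0.28 and 0.33.

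Other genes that handle vitamin A were read from a list of 24, of which 23 were on the array and 19 passed the level filter. At 21 vs 4 months 1 was at least 1.5-fold higher and none lower, and the median was 0.01. That gene was Cyp26a1, a cytochrome P450 that breaks down retinoic acid, at 7.60, 8.21, 9.24 and 9.12 at the 4 ages. It was 2.87-fold higher at 21 than at 4 months and was already 1.64 higher at 13 months. Cyp26b1, which has the same kind of activity, followed another course, at 5.21, 5.96, 5.81 and 4.76. Like Lrat it was higher at both middle ages than at 4 or 21 months. The retinoic acid receptor gene Rarb was at 4.43, 3.94, 4.48 and 4.54. Rbp4, which carries retinol in plasma, was at 12.48, 12.50, 12.52 and 12.40, and the retinaldehyde dehydrogenase gene Aldh1a1 at 11.99, 12.05, 12.06 and 12.04. Neither moved by more than 0.12 over the 4 ages. Aldh1a7 was at 10.82, 10.82, 10.97 and 11.10.

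Des encodes desmin, an intermediate filament protein of muscle that in rodent liver marks stellate cells. Its level was 5.19, 5.29, 5.14 and 5.09 at 4, 8, 13 and 21 months. The oldest pool was the lowest, by 0.10 against 4 months and 0.20 against 8 months. A second Des probe set ran the other way at 21 vs 4 months, by 0.50, but its values of 2.89 to 3.39 lay below the filter. Markers of skeletal and cardiac muscle were low in all pools, with 2 of 8 above the filter, and Myh4 was between 2.07 and 2.17. Of the 6 other mesenchymal or muscle filament genes 3 passed the filter. Vim, which encodes vimentin and is expressed by mesenchymal cells and leukocytes alike, was at 6.86, 6.89, 7.19 and 7.66, higher at 21 than at 4 months by 0.80. Nes, which encodes nestin, was at 6.03, 6.14, 6.02 and 5.92, and Gfap, an astrocyte filament found in stellate cells, at 4.70, 5.29, 4.91 and 4.74. Nes and Gfap, like Des, had their highest value at 8 months.

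Pdgfra and Pdgfrb encode the receptor tyrosine kinases for platelet-derived growth factors, and the beta receptor is the better known mitogen receptor of activated stellate cells. Pdgfrb was at 4.71, 4.50, 4.71 and 5.0 at 4, 8, 13 and 21 months. It was highest at 21 months, 1.22-fold above 4 months and 1.41-fold above 8 months, and its range of 0.50 was the widest of the 10 genes. A second Pdgfrb probe set, also above the filter, was at 4.10, 4.23, 4.17 and 4.20 and differed by 0.10 at 21 vs 4 months and by -0.03 at 21 vs 8 months. The probe sets thus gave opposite signs for 21 vs 8 months, and both lay within about 1.3 log2 units of the filter. Pdgfra was at 6.00, 6.21, 6.24 and 6.21, so 4 months was the lowest and the 3 later ages lay within 0.03 of each other. Its other probe sets were below the filter, with differences of 0.09 and -0.26 at 21 vs 4 months.

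The PDGF ligands and signalling genes were 13 in the list used, and 12 passed the filter. At 21 vs 4 months 6 were higher and 6 lower, 1 of them at least 1.5-fold higher, and the median was 0.00. Among the ligands Pdgfa was at 5.22, 5.24, 5.38 and 4.97, Pdgfb at 4.55, 4.46, 4.52 and 4.49, and Pdgfc at 5.82, 5.56, 5.38 and 5.79. These 3, the ligand genes above the filter, were slightly lower at 21 than at 4 months, by 0.25, 0.06 and 0.03, though the mean over both Pdgfc probe sets was 0.15 higher. The other ligand gene, Pdgfd, lay below the filter and was 0.06 higher. The gene past 1.5-fold was Stat3, a transcription factor activated by cytokines and growth factors, higher by 0.63, with 0.31 for the mean of all its probe sets. The co-receptor gene Nrp1 was higher by 0.29, with 0.15 for the mean of all its probe sets, and the adaptor gene Pik3r1 by 0.10.

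The TGF-beta list had 13 of 15 genes above the filter. None was 1.5-fold higher or lower at 21 vs 4 months, 10 were higher and 3 lower, and the median was 0.11. The ligand gene Tgfb1, the chief profibrotic TGF-beta, was at 4.84, 4.89, 4.87 and 5.20. The receptor gene Tgfbr1 was at 7.89, 7.85, 7.98 and 7.98, the co-receptor gene Eng at 7.59, 7.64, 7.78 and 7.63, and the common mediator Smad4 at 8.80, 8.82, 8.80 and 8.83. Among the genes above the filter the largest difference was that of Tgfb1, 0.36, and below it Tgfb2 was 0.49 higher, at levels of 2.88 to 3.37.

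Dcn encodes decorin, a small leucine-rich proteoglycan that binds collagen fibrils and TGF-beta. Its level was 9.72, 9.70, 9.88 and 10.16 at 4, 8, 13 and 21 months. The values at 4 and 8 months were close, 13 months was higher than both, and 21 months was the highest, 1.36-fold above 4 months. Of all genes above the filter 3.55% had a difference at least as high at 21 vs 4 months, which makes Dcn the member farthest out in that comparison. The other Dcn probe set gave 0.17 in the same direction, at levels of 2.29 to 2.64, below the filter.

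Of 8 other small leucine-rich proteoglycan genes 5 passed the filter, 4 of them higher and 1 lower at 21 vs 4 months, none past 1.5-fold, with a median of 0.19. Bgn, which encodes biglycan, the closest relative of decorin, was at 8.28, 8.43, 8.37 and 8.62, and Prelp at 6.88, 6.87, 6.91 and 7.09. Both were highest at 21 months, like Dcn. Lum, which encodes lumican, was at 6.71, 6.76, 6.63 and 6.75. Fmod, which encodes fibromodulin, was the lower one, at 4.66, 4.75, 4.68 and 4.35.

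Reln encodes reelin, a large secreted glycoprotein of neuronal migration that stellate cells also secrete. It was at 8.47, 8.52, 8.46 and 8.59 at 4, 8, 13 and 21 months. Its range of 0.13 was the narrowest of the 10 members, and 79.3% of all genes above the filter had a range at least as wide. A second probe set, at 2.13 to 2.25, was below the filter. Of 6 genes of reelin signalling, the receptor genes Vldlr and Lrp8 were below the filter. The 4 others were lower at 21 than at 4 months, none by 1.5-fold, with a median of -0.13. The adaptor gene Dab1, which relays the reelin signal, was at 5.44, 5.58, 5.10 and 5.07, and the kinase gene Fyn at 5.84, 5.60, 5.75 and 5.65. By the mean over each gene's probe sets Dab1 differed by -0.14 at 21 vs 4 months, in place of -0.37, and Fyn by 0.08. Crk and Pafah1b1 differed by -0.07 and -0.03.

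Colec10 and Colec11 encode collectins, secreted C-type lectins with a collagen-like tail that bind sugars on microbes and start the lectin pathway of complement together with MASP proteases. Colec11 was at 8.88, 8.86, 8.79 and 9.14 at 4, 8, 13 and 21 months. The 3 younger pools lay within 0.09 of each other and 21 months lay above all of them, by 0.26 against 4 months and 0.35 against 13 months. A second Colec11 probe set, at 6.30, 6.36, 6.28 and 6.55, gave 0.25 and 0.27 for the same pairs. The probe set used for Colec11 carries the suffix s_at, which marks probes shared between transcripts. Colec10 had a single probe set, at 6.63, 6.44, 6.39 and 6.63. It was equal at 21 and 4 months and lower at both middle ages, so Colec10 and Colec11 were each lowest at 13 months and 0.24 and 0.35 higher at 21 vs 13 months.

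All 8 other genes of the lectin pathway on the array passed the filter. All were higher at 21 than at 4 months, by 0.02 to 0.33, none past 1.5-fold, with a median of 0.12, where 51.4% of all genes were higher. Some of these differences were slight, such as 0.08 for Mbl1 and 0.03 for Mbl2. The median was 0.05 with quantile normalization, so the signs of the smallest differences, and with them the count, may depend on the processing. Serping1, the inhibitor of the first complement proteases, was at 11.38, 11.36, 11.50 and 11.71. The mannose-binding lectin genes Mbl1 and Mbl2 were at 9.93, 10.01, 9.85 and 10.01, and at 11.03, 10.86, 10.93 and 11.06. Masp1, the protease partner, was at 8.67, 8.48, 8.41 and 8.82, the same order of ages as Colec11, with 13 months lowest and 21 months highest. Masp1 and the other genes that are not members and are named for likeness of order were chosen after their values were seen.

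Rgs5 encodes a regulator of G protein signalling that shortens the signal of vasoactive receptors and is abundant in pericytes. Its level was 8.38, 8.21, 8.00 and 8.15 at 4, 8, 13 and 21 months. The youngest pool was the highest and 13 months the lowest, with 13 months 1.30-fold lower than 4 months and 21 months 1.17-fold lower. Of the 3 other Rgs5 probe sets, all above the filter, 2 gave the same sign at 21 vs 4 months. They were at 6.20, 5.91, 5.79 and 5.91, and at 5.44, 5.43, 5.20 and 5.24. The third was at 5.63, 5.69, 5.61 and 5.82 and was higher by 0.19 at 21 vs 4 months. It carries the suffix x_at, which marks probes that resemble other sequences. All 4 probe sets had their lowest value at 13 months.

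Of 17 other RGS genes 9 passed the filter, and the median difference at 21 vs 4 months was 0.28, with 7 higher and 2 lower. The 2 past 1.5-fold were Rgs2 and Rgs1. Rgs2, a regulator of Gq-coupled receptors, was at 4.60, 4.67, 5.01 and 5.58, and by the mean over its probe sets the difference was 0.51 in place of 0.98. Rgs1, a gene of leukocytes, was at 4.86, 5.10, 5.19 and 5.54. Rgs19 was at 4.98, 4.30, 4.76 and 5.29, and Rgs16 at 8.68, 8.86, 9.14 and 8.94. None of these 4 shared the order of ages of Rgs5. At 21 vs 4 months Rgs3 differed by 0.31, and by 0.20 as the mean of its probe sets, and Rgs9 by -0.25, and by -0.03 as that mean.

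Hand2 encodes a basic helix-loop-helix transcription factor that in mouse is expressed in the mesenchyme from which stellate cells arise. It was at 6.25, 6.25, 6.40 and 6.26 at 4, 8, 13 and 21 months. The pools of 4, 8 and 21 months lay within 0.01 of each other and 13 months was 0.15 above 4 months. The other Hand2 probe sets lay below the filter, and of these 1 had its highest value at 13 months and the other its lowest there. Other transcription factors of stellate cells were read within a list of 27 quiescence and vitamin A storage genes. Gata4, which restrains liver fibrosis in mouse, was at 5.80, 5.94, 5.88 and 5.87, Gata6 at 5.82, 5.82, 5.90 and 5.81, Lhx2 at 4.37, 4.69, 4.63 and 4.63, and Tcf21 at 5.72, 5.58, 5.79 and 5.98. Lhx2 and Tcf21 were both 0.26 higher at 21 than at 4 months, and the mean over both Tcf21 probe sets gave 0.03.

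In that quiescence list 25 genes were on the array and above the filter, 16 higher and 9 lower at 21 vs 4 months, with a median of 0.04. The gene past 1.5-fold was Steap4, a metalloreductase that is also induced by inflammation, at 8.84, 8.99, 9.13 and 10.06, which is 2.33-fold higher at 21 than at 4 months. Sparcl1, a matrix glycoprotein, was higher by 0.51 and Cygb, which encodes the stellate cell globin cytoglobin, by 0.41. Cxcl12, a chemokine of stromal cells, was higher by 0.22, with 0.01 for the mean of all its probe sets. Others in the list lay the other way. Tlcd4, among the genes of highest level, was at 10.74, 10.71, 10.51 and 10.50, a difference of -0.24 at 21 vs 4 months, or -0.33 as the mean of its probe sets. Bambi, which encodes a decoy receptor that dampens TGF-beta signalling, had the lowest difference of the list, -0.35, at levels near the filter. The transcription factors, ligands, Tgfb1, Fmod, Dab1, Vldlr, Lrp8, Myh4, Timp1, Sparcl1, Cygb, Bambi, Pdgfd and Tgfb2 were chosen for naming after their values were seen.

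Activation of stellate cells was read from a list of 30 contractile and matrix genes, of which 25 were on the array and 19 above the filter. At 21 vs 4 months 17 were higher and 2 lower, 1 at least 1.5-fold higher and none lower by that size, with a median of 0.17, where 51.4% of all genes were higher and 45.2% lower. The median was 0.09 with the mean over probe sets and 0.11 with no filter. The gene past the threshold was Vim. Acta2, which encodes the smooth muscle actin of myofibroblasts, was at 5.72, 6.36, 5.69 and 5.92, with 8 months 0.64 above 4 months. Its mean over probe sets was 0.07 higher at 21 vs 4 months, where the probe set used gave 0.20. Acta2, Tagln and Cnn1 are also in the vascular smooth muscle and pericyte list read below, and Thy1 in the portal fibroblast list. The collagen gene Col3a1 was at 7.06, 6.71, 6.54 and 7.23, the matrix protease gene Mmp14 at 6.48, 6.13, 6.42 and 6.76, Sparc at 7.06, 7.05, 6.97 and 7.39, and Fn1, which encodes fibronectin, at 11.18, 11.13, 11.06 and 11.36. All 4 were highest at 21 months and lowest at 8 or 13 months. As the mean over probe sets Mmp14, Col3a1 and Sparc differed by 0.09, 0.075 and 0.23 at 21 vs 4 months, in place of 0.28, 0.17 and 0.33. For Fn1 that mean was 0.41 in place of 0.18. The 2 lower genes at 21 vs 4 months were Mmp2, with -0.31, and Tpm2, with -0.08, though the mean over the Tpm2 probe sets was 0.14. The collagen gene Col1a1, below the filter, differed by -0.43, or by -0.185 as the mean of its probe sets. Mmp2, Tpm2 and Col1a1 were named after their values were seen. Timp1, an inhibitor of matrix proteases that is induced in fibrosis, lay below the filter at all ages, between 3.15 and 3.23.

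**Figure D3:**
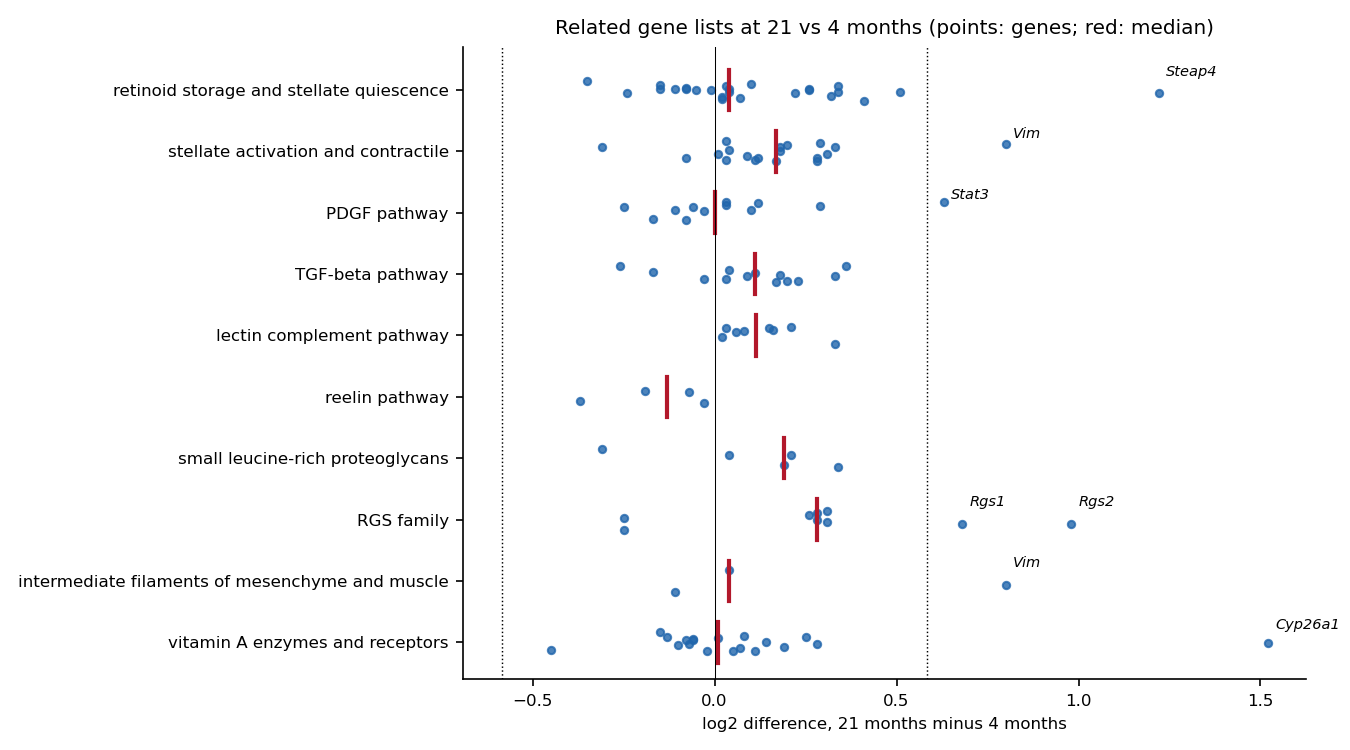
Log2 difference at 21 minus 4 months for the genes above the filter in the 10 related lists, 1 blue point per gene and a red line at the median; dotted lines mark 1.5-fold. The genes past 1.5-fold are named, from Cyp26a1 with 1.52 to Stat3 with 0.63, and the list medians lie between -0.13 and 0.28.

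The markers of neighbouring cell types were set beside the members, since whole liver holds them all. Vascular smooth muscle and pericyte markers, 7 of 11 above the filter, had a median of 0.20 at 21 vs 4 months and 0.29 at 8 vs 4 months. With no filter the medians over all 11 were 0.08 and 0.19. Portal fibroblast markers, 9 of 12 above the filter, had medians of 0.04 and 0.27 for the same pairs. The members' medians for these pairs were 0.08 and -0.01. Sinusoidal endothelium markers had 0.05 and hepatocyte markers -0.04 at 21 vs 4 months. Of 10 Kupffer cell and macrophage markers, all were higher at 21 than at 4 months and 6 past 1.5-fold, with a median of 0.75. Their summed level, as log2, was 11.41, 10.99, 11.47 and 12.19 at 4, 8, 13 and 21 months. The summed level of the 10 members was 11.21, 11.19, 11.21 and 11.43, which follows mostly Dcn, the member with the brightest probe set. Other leukocyte lists were read in the same way. B and plasma cell markers, 4 of 6 above the filter, had a median of 0.89 at 21 vs 4 months, but the list was split. Ighm, the immunoglobulin M heavy chain gene, was higher by 2.84 and Jchain, which joins immunoglobulin chains, by 1.58. The mean over the 11 Ighm probe sets was 0.48. Cd79b and Ms4a1, the others above the filter, were higher by only 0.19 and 0.18. Neutrophil markers, 4 of 6 above the filter, had a median of 0.77, which lies between 2 unlike pairs of genes. S100a8 was higher by 1.35 and S100a9 by 1.45, while Ngp differed by 0.19 and Elane by -0.11. T and NK cell markers, 3 of 7 above the filter, had a median of 0.09, with 2 higher and 1 lower. With no filter the median was 0.25. Gzma, below the filter by its mean level, was at 3.09 at 4 months and 4.14 at 21 months, higher by 1.05. The summed level, as log2, was 6.72, 7.31, 7.72 and 8.75 for the B and plasma cell list and 6.91, 6.80, 7.28 and 7.88 for the neutrophil list. At 21 months the B and plasma cell sum follows mostly the Ighm probe set used, at 8.30. The part of macrophages, B and plasma cells or neutrophils in the levels of Vim, Rgs1, Rgs2 or Steap4 was not tested.

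**Figure D4:**
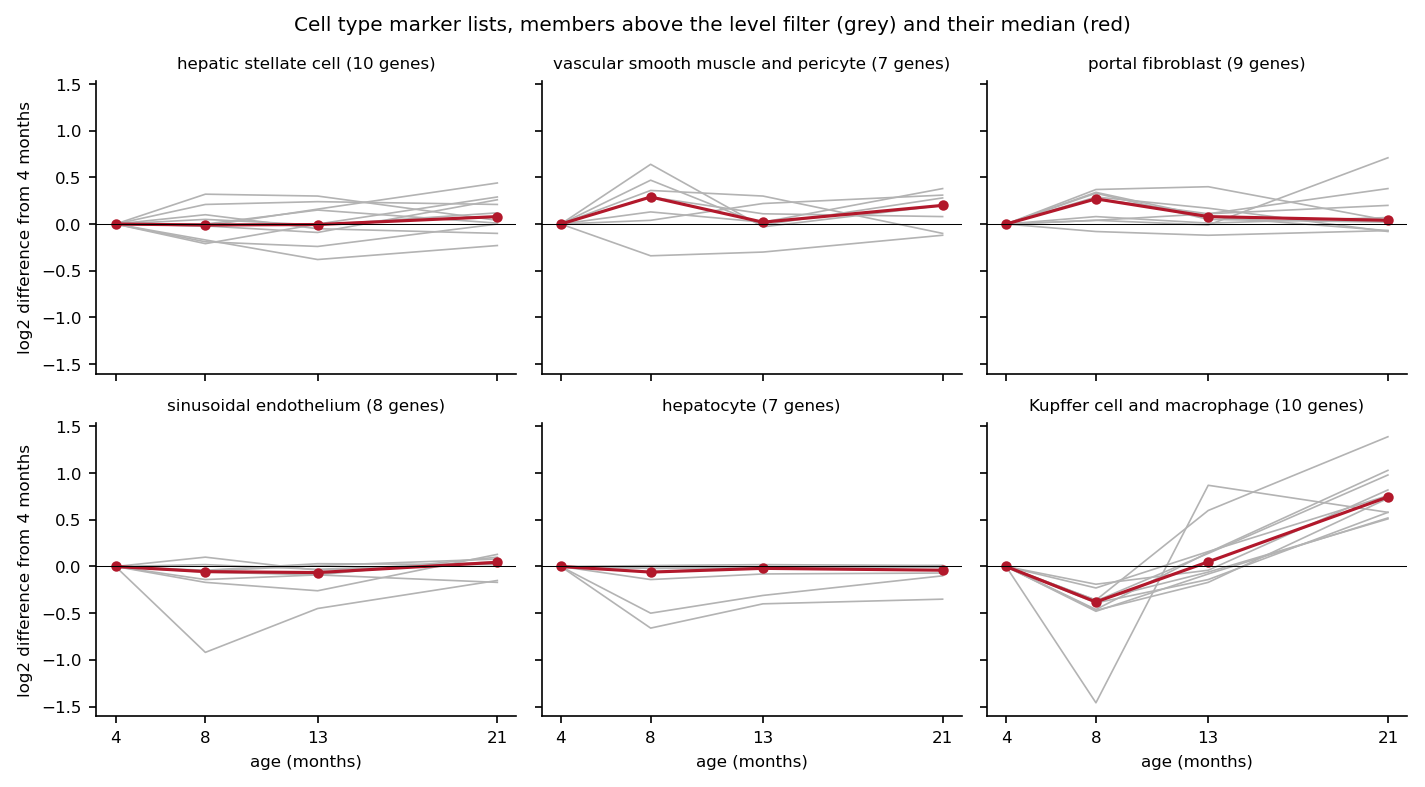
Log2 difference from 4 months against age for the genes above the filter in 6 cell type marker lists, 1 grey line per gene and the median in red. The red line of the 10 stellate cell genes stays between -0.01 and 0.08, while that of the Kupffer cell and macrophage list reaches 0.75 at 21 months.

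Across the 4 ages the members ranged over 0.13 to 0.50, with a median range of 0.28, where the median over all genes above the filter was 0.22 and the middle of the distribution ran from 0.14 to 0.32. Of all genes 8.29% had a range at least as wide as that of Pdgfrb, 10.4% as that of Dcn and 17.3% as that of Rgs5. Hand2 and Des lay in the narrow part, with 72.9% and 56.6% of genes at least as wide. By age, 21 months alone held the highest value of 4 members, Reln, Pdgfrb, Colec11 and Dcn, where 30.4% of all genes were highest there. For Reln and Pdgfrb this depended on the processing. With quantile normalization Reln differed by -0.02 at 21 vs 8 months. The other Pdgfrb probe set above the filter was highest at 8 months, with 4.23 against 4.20 at 21 months. The lowest value lay at 13 months alone for 4 members, Reln, Colec10, Colec11 and Rgs5, where 21.2% of genes were lowest there. For Reln this rested on 8.46 against 8.47 at 4 months, and for Colec10 on 6.39 against 6.44 at 8 months. The members did not share 1 course over the ages: Lrat and Des peaked at 8 months, Pdgfra and Hand2 at 13 months, and Rgs5 at 4 months. Of all genes 22.9%, 22.4% and 18.7% were highest at 8, 13 and 4 months alone. Some of these peaks were slight, since at 13 vs 8 months Lrat differed by -0.02 and Pdgfra by 0.03.

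**Figure D5:**
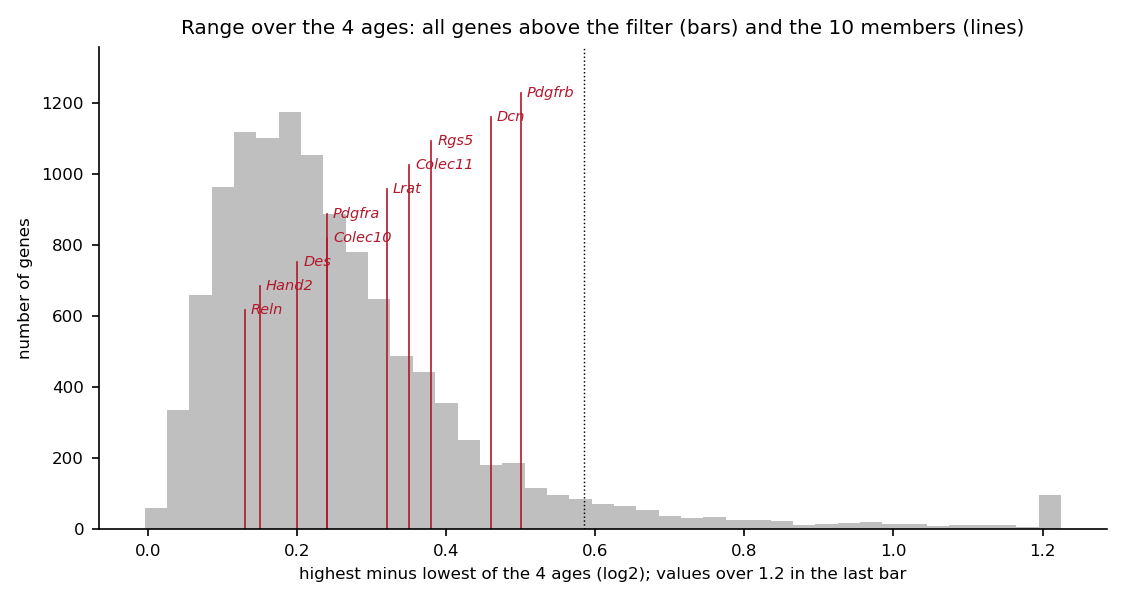
Histogram of the range over the 4 ages (highest minus lowest log2 value) for the 11577 genes above the filter, with a red line at the range of each member and a dotted line at 1.5-fold. The members lie between 0.13 (Reln) and 0.50 (Pdgfrb), inside the bulk of the histogram or on its shoulder.

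Profiles were also compared by the Euclidean distance between levels centred on each gene's own mean over the 4 arrays. Among the members the closest pair was Pdgfrb and Dcn, with a distance of 0.147, followed by Pdgfra and Hand2 with 0.172 and Reln and Colec11 with 0.176. The mean profile of the members was at -0.03, -0.02, -0.02 and 0.07 relative to its own mean at 4, 8, 13 and 21 months. The genes nearest to it were Zfp994, Hspb8, Rpa1, Sf3b6 and Usp4, at distances of 0.0099 to 0.0134, all nearly flat with 21 months highest by about 0.09. For Pdgfrb, the member with a range of at least 0.5, the nearest genes were Slc36a1, Pros1, Tubb2a, Tuba1a and Lpgat1, at distances of 0.0296 to 0.0469. These distances and that between Pdgfrb and Dcn rest on 1 Pdgfrb probe set. The other, also above the filter, was highest at 8 months and had a range of 0.13. With 4 arrays many genes share such a profile by their small range alone, and the distance describes these 4 pools.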

How the data were processed

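Liver RNA of 4 age groups was measured on 1 oligonucleotide array each. The authors deposited a log2 expression value for each of 45101 probe sets, made with RMA, per the submitters' processing notes. Not given in the sources used here are the RMA version and which other arrays, if any, entered the same normalization. RMA aligns the arrays' distributions and compresses differences of dim probe sets, and no detection calls were used. Names came from the platform annotation, which gave 34945 probe sets 1 symbol and 932 several. Of the single-symbol ones 34741 were matched by gene identifier to a GRCm38.p6 gene table, which changed 0 symbols. Older symbols in the gene lists were updated through the same table. Files name no genome build, so only the promoter table's coordinates are given. No test was run. Differences were described by size (1.5-fold, with 1.2-fold beside it) and profiles by Euclidean distance. The counting was tested on simulated data.

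The members and the gene lists were chosen with earlier results of these data known. Named genes are all members, up to 4 list genes past 1.5-fold in any pair of ages by their size at 21 vs 4 months, up to 3 of the highest level in each list, and the 5 nearest profiles; others were chosen after their values were seen, as were 2 alternatives, leaving out each member from the median and setting 21 months against the mean of the 3 younger arrays. Alternatives were other probe set choices, filters, centring, quantile normalization, cyclic loess and fold sizes. Alternative normalizations used limma 3.58.1 in R 4.3.3; everything else used pandas 2.3.3 and numpy 2.4.6 in Python 3.11.15, with figures by matplotlib 3.10.9.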

Additional observations from a re-analysis of the deposited data

How the results depend on the processing

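With 1 pool per age, the limits lie in the lack of replicates, in dim probe sets and in probe sets of 1 gene that differ in sign or size. Such differences were seen for Pdgfrb and Des, and also between probe sets above the filter for Rgs5 and Lrat. At 21 vs 4 months these gave -0.23 and 0.19 for Rgs5 and 0.04 and -0.10 for Lrat. No paired analysis was possible because each age has 1 array and no replicate number. No member reached 1.5-fold in any pair of ages under any alternative. Centring, quantile normalization and cyclic loess moved no member's difference by more than 0.09. The stricter filter cannot move a difference and only took out Des and Pdgfrb. By comparison, 17 of 60 differences moved by 0.1 or more with the mean over probe sets and 19 of 60 with the probe set of largest range. Against the mean of the 3 younger arrays 4 of 10 differences at 21 months moved, by up to 0.21. At 1.2-fold the members past the size numbered 1, 2, 2, 4 and 3 for 8 vs 4, 13 vs 4, 21 vs 4, 21 vs 8 and 21 vs 13 months, in place of 0. With the probe set of largest range the members' median was 0.12 at 21 vs 4 months, 0.19 at 21 vs 8 months and 0.24 at 21 vs 13 months. It was lower with the mean over probe sets, quantile normalization and cyclic loess at 21 vs 4 months, with 0.02, 0.04 and 0.06, and at 21 vs 8 months, with 0, -0.03 and 0.003. With 1 member left out the median at 21 vs 4 months lay between 0.04 and 0.12.

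For the lists at 21 vs 4 months, genes past 1.5-fold in the activation list numbered 2 with the probe set of largest range or no filter and 0 at 2-fold, in the PDGF list 0 with the mean over probe sets, quantile normalization or 2-fold, in the RGS list 1 with the mean over probe sets and 0 with the stricter filter or 2-fold, in the filament list 0 at 2-fold, and in the vitamin A list 2 with no filter. The activation median was 0.09 with the mean over probe sets and 0.11 with no filter, and the proteoglycan median 0.11 and 0.12 with the same. The lectin pathway median was 0.05 and the vitamin A median -0.05 with quantile normalization. The reelin median was -0.06 with the mean over probe sets, -0.05 with the stricter filter and -0.01 with the probe set of largest range, and the filament median 0.30, 0.39 and 0.35 with the mean over probe sets, the largest range and the stricter filter.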
